A study of Homo sapiens with 12 samples.

Results

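The interferon-induced proteins with tetratricopeptide repeats (IFIT) were examined in FaDu cells with and without STING. The members are the rows of the deposited table with the symbols IFIT1, IFIT2, IFIT3 and IFIT5, which are 4 of 58288 listed genes, and all 4 passed the filter on low values that left 15973 genes to test. FaDu is an established human head and neck squamous cell carcinoma line, and STING, encoded by the gene listed as TMEM173, is the adaptor that relays cytosolic DNA sensing by cGAS to interferon genes. All cells carried Cas9 and a guide RNA vector selected with puromycin, with a nontargeting guide in the STING WT cells and a guide against STING in the STING KO cells. Cells of each genotype were collected unirradiated (0Gy) or after 4 daily treatments of 2 Gy (RT), with 3 libraries of poly(A) RNA in each of the 4 groups. The sources do not say how long after the last treatment RNA was taken, whether the KO cells are 1 clone, or whether libraries of a group came from separate cultures. The p-values below therefore measure the spread between libraries, which may be technical. Each genotype carries its own guide, so loss of STING and other effects of guide or line cannot be told apart in these libraries.

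IFIT proteins are cytoplasmic RNA-binding proteins that lack enzymatic activity and are built from repeated helix-turn-helix units. IFIT1 binds RNA whose cap lacks ribose methylation and keeps it from being translated, IFIT5 binds RNA with a 5′ triphosphate, and IFIT2 and IFIT3 assemble with IFIT1 into complexes. Their genes are transcribed when the transcription factor complex ISGF3, which contains IRF9, binds an interferon-stimulated response element (ISRE), and interferon regulatory factors such as IRF3 can also bind this element directly.

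The 4 genes lie side by side on the plus strand of chromosome 10 within 137.308 kb (GRCh38, GENCODE release 29). IFIT2 (ENSG00000119922.9) spans chr10:89283694-89309276 and IFIT3 (ENSG00000119917.13) spans chr10:89327894-89340971. IFIT1 (ENSG00000185745.9) spans chr10:89392546-89406486 and IFIT5 (ENSG00000152778.8) spans chr10:89414586-89421001. LIPA, which encodes lysosomal acid lipase, runs on the opposite strand across IFIT2, IFIT3 and IFIT1. Its exons share 65 bases, or 1.58%, of the exons of IFIT2 and none of those of IFIT1 or IFIT3. The strand setting of the quantification is not given in the sources used here, so reads from those shared bases cannot be told apart. The antisense-type gene AL353751.1, on the same strand as IFIT2, shares 6.27% of the 100-base stretches of IFIT2 transcripts and was listed at 0 in every library. No 100-base stretch of IFIT1, IFIT3 or IFIT5 occurs in another gene's transcripts.

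The letters of the ISRE core, GAAANNGAAA or on the other strand TTTCNNTTTC, were searched on both strands in promoter windows from RefSeq (GRCh38.p14) that reach from 250 bases before to 50 bases after an annotated start. They occur in 3.57% of 35116 windows, at least 2 times in 0.259% and at least 3 times in 0.0370%. The window of IFIT1 holds 2 copies, each of the 2 windows of IFIT3 holds 2, and that of IFIT5 holds 3. IFIT1B, the relative that lies between IFIT3 and IFIT1, has none in its window, and IFIT2 has no entry in the table. The copies are shown because these 4 genes moved together in the KO cells by very different amounts, with the matching letters in capitals and each stretch read 5′ to 3′ on the plus strand. The first pair of lines gives the 60 bases before the GENCODE gene starts of IFIT1 (chr10:89392486-89392545) and IFIT3 (chr10:89327834-89327893). The RefSeq starts lie further downstream. Relative to them, taking the first of the 2 for IFIT3, these stretches run from -137 to -78 and from -163 to -104. The next lines give the copies near the second IFIT3 start (chr10:89332432-89332447 and chr10:89332475-89332490) and the 3 copies of IFIT5 (chr10:89414520-89414535, chr10:89414546-89414561 and chr10:89414561-89414576).
IFIT1: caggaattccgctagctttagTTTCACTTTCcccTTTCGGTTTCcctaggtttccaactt
IFIT3, first start: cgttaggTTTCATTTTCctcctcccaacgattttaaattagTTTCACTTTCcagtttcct
IFIT3, second start, distal: ctgTTTCAGTTTCccc
IFIT3, second start, proximal: cagTTTCACTTTCctt
IFIT5, distal: aagTTTCGGTTTCtga
IFIT5, middle: tagTTTCGATTTCtta
IFIT5, proximal: aagTTTCAGTTTCtga
All copies have the same orientation, TTTC on the plus strand. In IFIT1 the copies are 3 bases apart, from position -116 to -94 relative to the RefSeq start. The first letters TTTCACTTTC of IFIT1 recur in both IFIT3 windows, and TTTCGGTTTC occurs in IFIT1 and IFIT5. The distal copy of IFIT5 lies within an annotated exon of LIPA and the middle copy overlaps its edge. IFIT5, which changed least in the comparisons of KO with WT cells that follow, holds 3 copies, and IFIT1 holds 2. IFIT3, which changed more than IFIT1, holds 2 in each of its 2 windows. IFIT2, which changed most, has no window to read. Whether the copies bear on the changes was not tested.

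TMEM173 was listed at 21.1 to 26.1 TPM, transcripts scaled to a total of 1000000 per library, in the 6 WT libraries and at 5.18 to 7.41 TPM in the 6 KO libraries. TPM also corrects for gene length, so levels can be compared between genes, but it does not keep the sequencing depth, which is unknown. All 7 squamous epithelial markers were at 1 TPM or more in every library. Of the markers of other cell types, 4 of 5 immune, 3 of 4 fibroblast and 1 of 3 endothelial markers were below 1 TPM in every library. The immune sum, nearly all CD14, was 2.62 to 3.02 TPM in unirradiated WT and 3.66 to 4.35 TPM in unirradiated KO libraries, and 3.02 to 3.45 and 3.07 to 3.41 TPM in irradiated ones. Its part in the KO comparisons was not tested. In bulk RNA, fewer cells expressing a gene and less RNA of it per cell cannot be told apart.

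In unirradiated WT cells IFIT1, IFIT2 and IFIT3 were abundant and IFIT5 was not. IFIT3 was at 122, 130 and 91.9 TPM in libraries 1, 2 and 3. IFIT1 was at 108, 118 and 89.3 TPM and IFIT2 at 110.0, 108 and 85.8 TPM. The ranges of these 3 genes overlapped, but within each library IFIT3 was the highest of them. IFIT1 was below IFIT2 in library 1 and above it in libraries 2 and 3, so that the order of IFIT1 and IFIT2 is not resolved. The group means of the 3 genes exceeded those of 88.9% to 90.3% of the 15973 tested genes. IFIT5 was far below them at 16.3, 16.0 and 15.0 TPM, a level whose mean exceeded that of 50.3% of tested genes. Library 3 was the lowest of the group for all 4 genes.

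**Figure D1:**
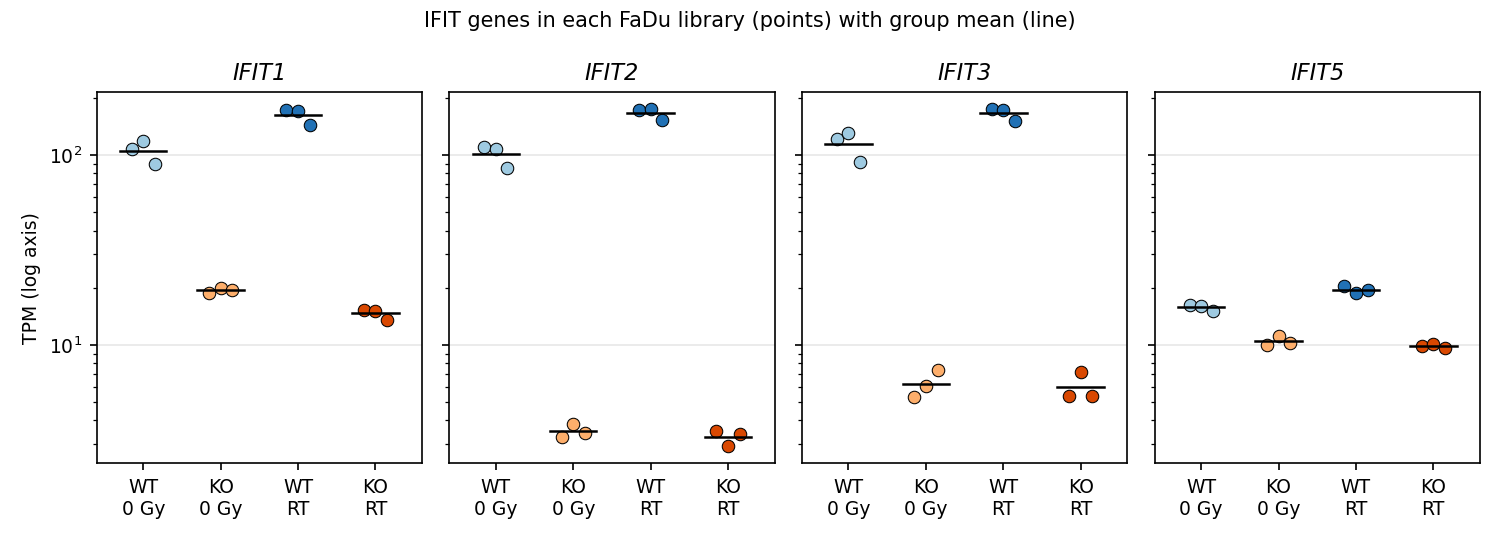
TPM on a logarithmic axis for IFIT1, IFIT2, IFIT3 and IFIT5 in each of the 12 libraries (points) of 4 groups, with the group mean as a line. WT and KO libraries do not overlap for any of the 4 genes, and the KO levels separate the genes that are alike in WT cells, from 2.92 to 3.85 TPM for IFIT2 up to 13.6 to 19.9 TPM for IFIT1.

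The first comparison asked how far the family differs between STING KO and WT cells that had not been irradiated. All 4 genes were lower in STING KO cells, and the loss ranged from 28.8-fold for IFIT2 to 1.51-fold for IFIT5. IFIT2 was at 3.28, 3.85 and 3.44 TPM in the KO libraries, 3.48% of the WT mean. IFIT3 was at 5.31, 6.09 and 7.36 TPM, 18.3-fold below WT and 5.45% of its mean. IFIT1, which keeps foreign RNA without a methylated cap from being translated, was at 18.8, 19.9 and 19.4 TPM, 5.43-fold below WT and 18.4% of its mean. IFIT5 was at 10.0, 11.2 and 10.2 TPM and so retained 66.2% of the WT mean. No KO library overlapped a WT library for any member, which was also the case, in the same direction, for 12.1% of all tested genes.

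On the scale of log2(TPM + 1), which understates changes of low genes, the log2 fold change was -4.49 for IFIT2 (SE 0.10, limma adjusted p = 4.6e-09) and -3.99 for IFIT3 (SE 0.15, adjusted p = 2.3e-07). For IFIT1 it was -2.37 (SE 0.10, adjusted p = 6.0e-07) and for IFIT5 -0.55 (SE 0.06, adjusted p = 0.0011). Thus 4 of 4 members were lower past the threshold, where 1.73% of all tested genes passed it in either direction and 1.26% were lower. Of the genes past the threshold 26.8% were higher in KO cells, and 37.6% were after scaling by median ratios. The 95% intervals of IFIT1 (-2.60 to -2.14), IFIT3 (-4.33 to -3.65) and IFIT5 (-0.69 to -0.41) did not touch each other, whereas those of IFIT2 (-4.73 to -4.26) and IFIT3 overlapped. Ordered from the largest fall, IFIT2 ranked 3, IFIT3 ranked 4, IFIT1 ranked 17 and IFIT5 ranked 409 among the 15973 tested genes.

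The unequal losses changed the make-up of the family. The summed TPM of the 4 genes was 337 ± 48.3 (SD, n = 3) in unirradiated WT and 39.6 ± 1.93 (SD, n = 3) in unirradiated KO libraries, 8.51-fold lower (exact permutation, two-sided p = 0.1, which 3 against 3 libraries cannot go below). In WT libraries IFIT1, IFIT2 and IFIT3 supplied 31.2%, 30.1% and 33.9% of that sum and IFIT5 4.73%. In KO libraries IFIT1 supplied 49.0%, IFIT5 26.4%, IFIT3 15.8% and IFIT2 8.89%. The order in KO cells was IFIT1, IFIT5, IFIT3, IFIT2, and neighbours in this order did not overlap. Within a library, the log2 ratio of IFIT2 to IFIT5 was 2.68 ± 0.14 (SD, n = 3) in WT and -1.57 ± 0.04 (SD, n = 3) in KO, so that the balance between them was turned over.

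The ratios within the trio that was nearly level in WT cells moved as well. The log2 ratio of IFIT2 to IFIT1 was -0.05 ± 0.08 in unirradiated WT and -2.46 ± 0.08 in unirradiated KO libraries (SD, n = 3). That of IFIT2 to IFIT3 was -0.17 ± 0.09 in WT and -0.82 ± 0.24 in KO. For all 6 pairs of members WT and KO libraries did not overlap, in unirradiated as in irradiated cells, and each of these 12 comparisons gave an exact permutation p = 0.1, the smallest possible. No adjustment over the pairs can bring such a value under the threshold.

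**Figure D2:**
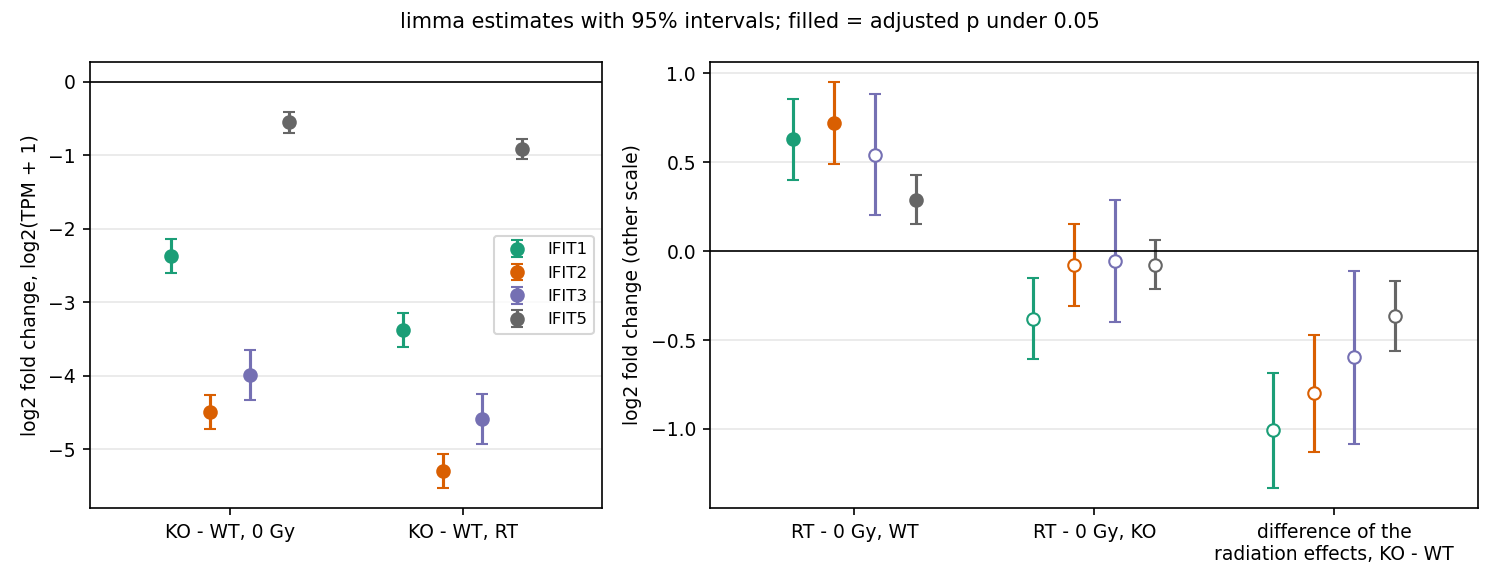
Log2 fold changes on the log2(TPM + 1) scale for the 4 members in the comparisons of KO with WT (left) and in the radiation effects and their difference (right, another scale), with 95% intervals from limma; filled points have an adjusted p under 0.05. All 8 KO comparisons are filled, from -0.55 for IFIT5 to -5.29 for IFIT2, whereas of the radiation effects 3 in WT cells and none in KO cells are.

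The second comparison concerned radiation in cells that have STING. IFIT1, IFIT2 and IFIT5 rose, each by less than 2-fold. IFIT2 reached 172, 175 and 153 TPM in irradiated WT libraries, 1.65 times the unirradiated mean (log2 fold change 0.72, SE 0.10, limma adjusted p = 0.0051). IFIT1 reached 172, 171 and 144 TPM, 1.55 times that mean (0.63, SE 0.10, adjusted p = 0.0095). IFIT5, the binder of triphosphate RNA, reached 20.3, 18.7 and 19.5 TPM, 1.24 times that mean (0.29, SE 0.06, adjusted p = 0.034). IFIT3 was at 174, 174 and 150 TPM, 1.45 times that mean, and did not pass the threshold (0.54, SE 0.15, adjusted p = 0.089). For all 4 genes every irradiated WT library was above every unirradiated one, as for 14.7% of tested genes. Among all tested genes 3.74% were past the threshold in either direction and 2.24% were higher, so that 59.8% of the calls were upward, or 49.5% after scaling by median ratios.

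The IFIT1, IFIT2 and IFIT5 calls depended on which libraries were fitted. When only the 6 WT libraries were fitted none of them passed, with adjusted p = 0.083 for IFIT1, 0.0503 for IFIT2 and 0.12 for IFIT5. The call of IFIT5 was also lost without any 1 of the 6 WT libraries, without unirradiated KO library 3 and without irradiated KO library 1, with adjusted p between 0.0502 and 0.12. The summed TPM of the 3 endothelial markers was 11.5 to 13.9 in unirradiated and 18.3 to 18.6 in irradiated WT libraries, and 13.0 to 15.9 and 19.9 to 23.9 in KO libraries, while VWF and CDH5 were present throughout and the third was below 1 TPM. The part of these markers in the radiation effects was not tested.

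In KO cells no member rose or fell past the threshold after radiation. IFIT1 was at 15.3, 15.1 and 13.6 TPM in irradiated KO libraries, all below the unirradiated KO libraries, with a log2 fold change of -0.38 (95% interval -0.61 to -0.15) that did not pass the threshold (limma adjusted p = 0.075). It passed under scaling by median ratios (adjusted p = 0.043), under the replicate block given among the alternatives below and without unirradiated WT library 3 (adjusted p = 0.035). IFIT2 was at 3.52, 2.92 and 3.40 TPM (-0.08, interval -0.31 to 0.15, adjusted p = 0.76). IFIT3 was at 5.38, 7.23 and 5.35 TPM (-0.06, interval -0.40 to 0.29, adjusted p = 0.89), and the sign of this change turned without unirradiated KO library 3, irradiated KO library 1 or irradiated KO library 3. IFIT5 was at 9.82, 10.1 and 9.61 TPM (-0.08, interval -0.21 to 0.06, adjusted p = 0.58). Irradiated and unirradiated KO libraries overlapped for IFIT2, IFIT3 and IFIT5. By limma 0 of the 4 members passed and IFIT1 alone had an unadjusted p under 0.05. Of all tested genes 3.69% passed in either direction, 18.1% had an unadjusted p under 0.05 and 10.6% had every irradiated KO library below the unirradiated ones.

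The difference between the radiation effects, KO minus WT, was negative for all 4 members. It was -1.01 for IFIT1 (SE 0.15, limma adjusted p = 0.14), -0.80 for IFIT2 (SE 0.15, adjusted p = 0.30), -0.60 for IFIT3 (SE 0.22, adjusted p = 0.73) and -0.36 for IFIT5 (SE 0.09, adjusted p = 0.57). No member passed after adjustment over all genes, although all 4 had an unadjusted p under 0.05, from 3.5e-05 for IFIT1 to 0.020 for IFIT3. Among all tested genes 6.61% had an unadjusted p under 0.05 in this comparison and 0.0188%, or 3 genes, passed after adjustment. A difference in the response of the IFIT genes to radiation between the genotypes was thus not established by the test over all genes. For IFIT1 every irradiated WT library was above and every irradiated KO library below its unirradiated counterparts, a pattern shared by 36 genes, or 0.225% of those tested.

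In irradiated cells the distance between the genotypes was wide as well. IFIT2 was 50.8-fold lower in KO than in WT libraries (log2 fold change -5.29, SE 0.10, limma adjusted p = 8.7e-10) and IFIT3 27.7-fold lower (-4.59, SE 0.15, adjusted p = 4.5e-08). IFIT1 was 11.1-fold lower (-3.38, SE 0.10, adjusted p = 2.1e-08) and IFIT5 1.98-fold lower (-0.92, SE 0.06, adjusted p = 1.6e-05). All 4 were past the threshold, with 3.59% of tested genes in either direction and 2.66% lower, and their libraries did not overlap, as for 14.5% of genes in that direction. The summed TPM was 515 ± 41.1 in irradiated WT and 33.8 ± 1.73 in irradiated KO libraries (SD, n = 3), 15.2-fold lower (exact permutation p = 0.1, the smallest possible). This sum was 1.53 times the unirradiated one in WT cells, and in KO cells every irradiated library was below every unirradiated one, each with exact permutation p = 0.1.

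IFIT1B, which lies between IFIT3 and IFIT1 and is regarded as a paralogue with other RNA preferences, was listed at 0.083 to 0.15 TPM in unirradiated WT libraries, at 0.028 to 0.14 TPM in irradiated WT libraries and at 0 in all 6 KO libraries. It did not pass the filter on low values, and no fold change was computed.

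None of the tested genes flanking the cluster fell as far as IFIT1, IFIT2 or IFIT3, whereas ACTA2 and FAS were close to IFIT5. Of 8 neighbours on chromosome 10, 6 were tested, and in unirradiated cells only ACTA2, a smooth muscle actin on the far side of FAS, was lower past the threshold in KO cells (log2 fold change -0.57, SE 0.11, limma adjusted p = 0.028). It was at 6.71 to 8.10 TPM in WT and 4.16 to 4.90 TPM in KO libraries. LIPA, on whose opposite strand IFIT2, IFIT3 and IFIT1 lie, was at 63.4 to 66.1 TPM in WT and 56.3 to 65.1 TPM in KO libraries (-0.11, SE 0.06, adjusted p = 0.41). FAS, the death receptor (-0.45, SE 0.19, adjusted p = 0.31), STAMBPL1, a deubiquitinase (-0.26, SE 0.11, adjusted p = 0.33), PANK1, a pantothenate kinase (-0.27, SE 0.32, adjusted p = 0.77), and KIF20B, a kinesin (0.02, SE 0.07, adjusted p = 0.95), did not pass. The median log2 fold change of the 6 was -0.27, beside -0.02 over all tested genes and -3.18 over the IFIT genes.

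In irradiated cells STAMBPL1 (-0.53, limma adjusted p = 0.029), ACTA2 (-0.49, adjusted p = 0.037) and LIPA (-0.25, adjusted p = 0.045) were lower in KO cells. These calls were near the threshold, and of 20 alternatives each, STAMBPL1 lost its call in 8, ACTA2 in 12 and LIPA in 16, as ACTA2 did in 10 in unirradiated cells. CH25H, the cholesterol 25-hydroxylase located between FAS and LIPA, was too low to be tested. It was listed at 0.11 to 0.34 TPM in unirradiated WT, 0.51 to 1.13 TPM in irradiated WT and at most 0.054 TPM in KO libraries. SLC16A12, the gene after IFIT5, was at most 0.12 TPM in any library.

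**Figure D3:**
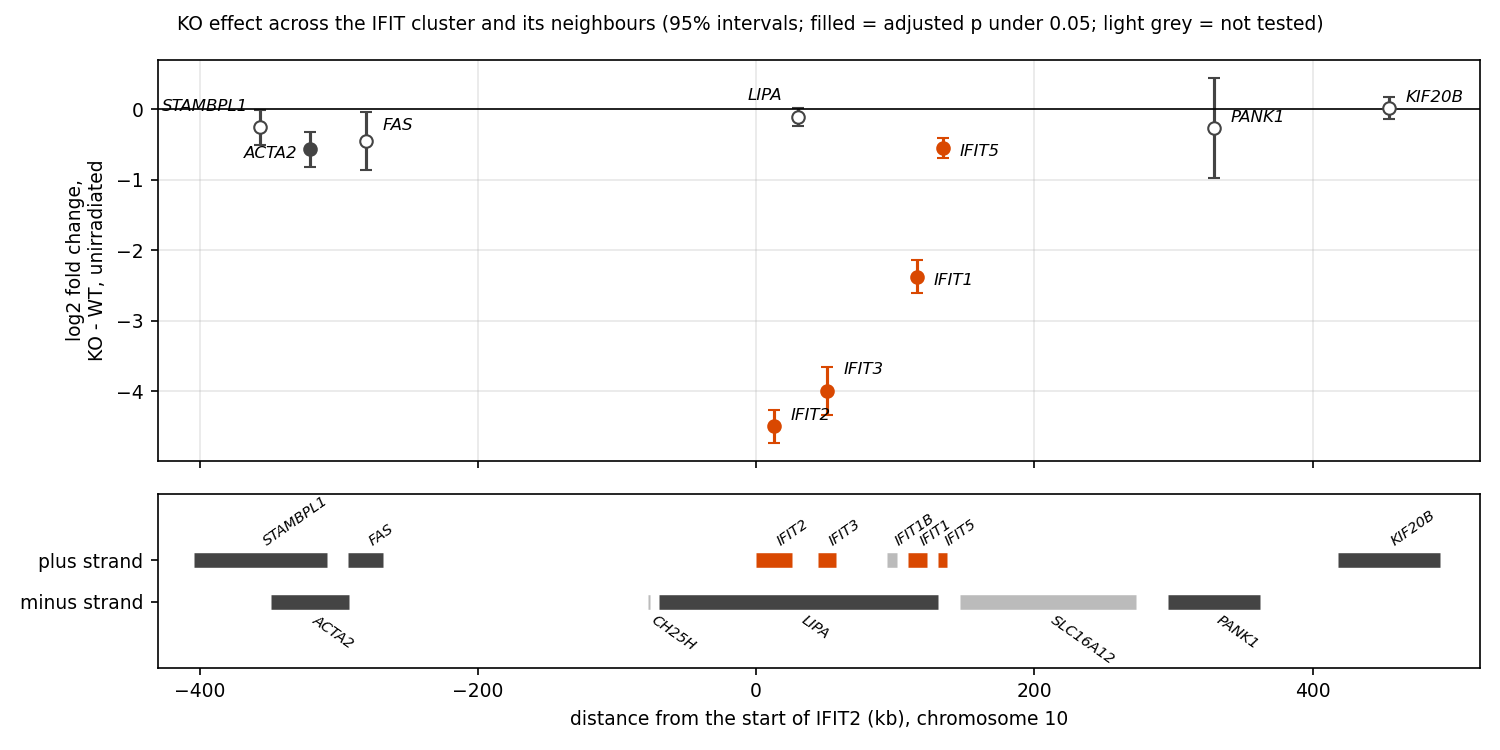
Log2 fold change of KO against WT in unirradiated cells (top, 95% intervals, filled where the adjusted p is under 0.05) for the tested genes around the IFIT cluster, placed by distance in kb from the start of IFIT2, with gene extents by strand below. The 4 IFIT genes (orange) run from -4.49 to -0.55 in the order IFIT2, IFIT3, IFIT1, IFIT5 along the chromosome, and the 6 neighbours (dark grey) lie between -0.57 and 0.02.

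Along the chromosome the fall in unirradiated KO cells was largest for IFIT2 and smallest for IFIT5, in the order of their positions, and the same order held in irradiated cells. With 4 genes this order is a description only.

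The IFIT genes were next set beside 55 other interferon-stimulated genes, of which 54 were tested. In unirradiated KO cells 42 of these 54 were lower past the threshold and none higher, beside 1.26% of all tested genes that were lower. The median log2 fold change of the 54 was -0.88. The list holds genes known to respond to interferon and was compiled with earlier results of these data known. IFIT2 and IFIT3 fell further than 52 of the 54. The genes that fell further than both were OASL, an oligoadenylate synthetase-like protein (-6.16, SE 0.12, limma adjusted p = 2.0e-09), and HERC5, the ligase that attaches ISG15 to proteins (-5.19, SE 0.13, adjusted p = 6.7e-09). DDX60, a helicase linked to RNA sensing, followed at -3.85 (SE 0.11, adjusted p = 1.4e-08). IFIT1 fell further than 42 of them, and IFIT5 further than 14.

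In irradiated KO cells 48 of 54 listed genes were lower past the threshold, with a median of -1.23, beside 2.66% of all tested genes. After radiation, 10 rose and 1, TNFSF10, fell in WT cells (median 0.26), and none rose and TNFSF10 fell in KO cells (median -0.01). Of all tested genes 2.24% rose in WT cells. In KO cells 3.69% passed in either direction, so that TNFSF10 alone, 1.85% of the list, is not above that share. TNFSF10 lost its call in 13 of 20 alternatives in WT cells and in 7 of 20 in KO cells, where 0 to 2 listed genes passed over the alternatives. The number past the threshold in WT cells, 11, was 4 without unirradiated WT library 1 or any 1 of the irradiated WT libraries, 6 without unirradiated WT library 3, 7 without unirradiated KO library 2 and 2 when only the WT libraries were fitted. The radiation effect of IFIT2 in WT cells was above that of 48 of the 54 and that of IFIT1 above 45. In the difference of the radiation effects only 1 listed gene was more negative than IFIT1, namely LGALS3BP, a secreted glycoprotein chosen here after its value was seen (-1.26, SE 0.42, adjusted p = 0.68).

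**Figure D4:**
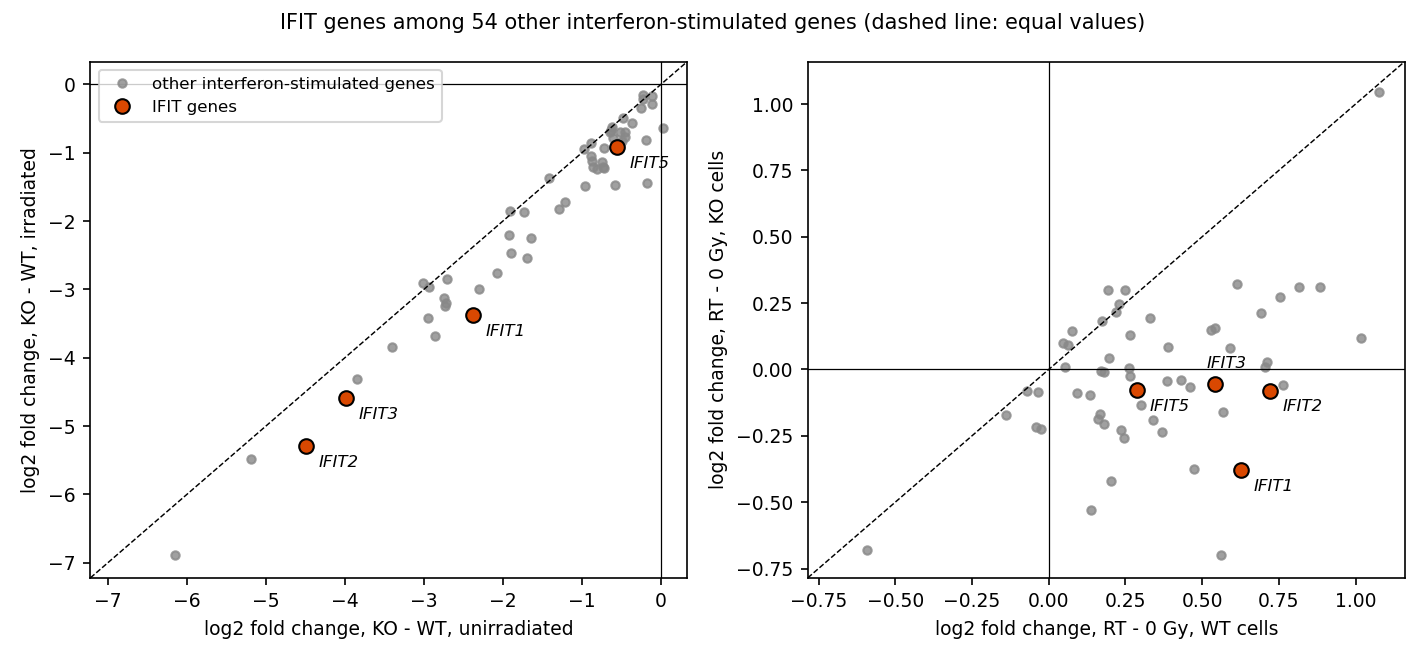
Log2 fold changes of the 4 IFIT genes (orange) and 54 other interferon-stimulated genes (grey), with KO against WT in unirradiated (x) and irradiated cells (y) on the left and radiation in WT (x) and in KO cells (y) on the right. On the left IFIT2 and IFIT3 lie near the lower end and IFIT5 near the upper end; on the right all 4 IFIT genes are above 0 in WT cells (0.29 to 0.72) and below 0 in KO cells (-0.38 to -0.06).

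For the steps between STING and the IFIT promoters, the RNA levels of 21 genes were read, of which 16 were tested. Phosphorylation of their proteins, which RNA levels do not show, was not measured in these libraries. In unirradiated KO cells TMEM173 itself and IRF9 were lower, and no gene of the list was higher past the threshold. IRF9, the subunit that recognises the ISRE, was at 40.1 to 54.3 TPM in WT and 18.5 to 23.0 TPM in KO libraries (log2 fold change -1.19, SE 0.18, limma adjusted p = 0.0057). STAT2 was at 41.6 to 48.2 and 31.7 to 39.0 TPM and did not pass (-0.31, SE 0.09, adjusted p = 0.14). The median over the 16 genes was -0.02, beside -0.02 over all tested genes.

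In irradiated cells IRF9 was 65.7 to 91.7 TPM in WT and 15.4 to 23.1 TPM in KO libraries (-2.09, SE 0.18, limma adjusted p = 7.6e-05). STAT2 passed narrowly (-0.38, SE 0.09, adjusted p = 0.048) and lost its call in 16 of 20 alternatives. None of the 16 was past the threshold for radiation in either genotype, where 3.74% of all tested genes were in WT cells and 3.69% in KO cells. IRF9 missed it narrowly in WT cells (0.72, SE 0.18, limma adjusted p = 0.051) and changed by -0.17 in KO cells (SE 0.18, adjusted p = 0.67). Of the type I interferon genes on the list, IFNB1 and IFNK were listed at 0 in all 12 libraries. The third, IFNE, was at 0.77 to 1.74 TPM in unirradiated WT, at 0.94 to 1.19 TPM in unirradiated KO and at 1.14 to 1.90 TPM in irradiated WT libraries, averaged 1.41 ± 0.08 TPM (SD, n = 3) in irradiated KO libraries and passed in no comparison. The lambda interferon genes were low in WT and listed at 0 in all 6 KO libraries, with IFNL1 at 0.66 to 0.86 TPM in unirradiated and 0.51 to 2.18 TPM in irradiated WT libraries.

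None of the tested genes of the machinery that IFIT proteins act on passed the threshold between the genotypes. Of all tested genes 1.73% passed it in unirradiated and 3.59% in irradiated cells, so that none in lists this short is close to that share. IFIT1 and IFIT2 are known to bind eIF3, the initiation factor that brings ribosomes to messenger RNA, and none of its 13 subunits passed the threshold in any comparison. The furthest from 0 in unirradiated KO cells were EIF3M (0.24, SE 0.16, limma adjusted p = 0.54), EIF3L (-0.17, SE 0.10, adjusted p = 0.49) and EIF3H (-0.11, SE 0.21, adjusted p = 0.86). Of 5 genes that build and methylate the RNA cap which IFIT1 reads, none passed in KO against WT cells. In unirradiated KO cells the log2 fold change was 0.20 for the guanine methyltransferase RNMT and 0.08 for its activator FAM103A1. It was 0.02 for the capping enzyme RNGTT, 0.01 for the ribose methyltransferase CMTR2 and -0.17 for CMTR1, which methylates the first transcribed nucleotide. In irradiated cells 3 of the 5 were below 0 and 2 above, and CMTR1 was the lowest (-0.24, SE 0.06, limma adjusted p = 0.064). FAM103A1 rose after radiation in WT cells (0.21, SE 0.05, limma adjusted p = 0.034) and lost this call in 9 of 20 alternatives. Its change in KO cells was similar and did not pass (0.18, SE 0.05, adjusted p = 0.064). The difference of the radiation effects was -0.03 (adjusted p = 0.95).

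Finally, the genes with the course most like each member were found as those with the smallest root mean square difference in log2(TPM + 1), each gene centred on its own mean, over the 12 libraries. This is a description with no test, and the libraries of 1 group share their treatment. For IFIT1 they were ISG15, a ubiquitin-like modifier (difference 0.20), RSAD2, which makes an antiviral nucleotide (0.26), and IFI44L (0.26). RSAD2 and IFI44L averaged under 1 TPM in KO cells, where the pseudocount of 1 compresses changes. With a pseudocount of 0.1 the KO effect in unirradiated cells was -5.62 for RSAD2 and -3.89 for IFI44L, beside -2.43 for IFIT1. For IFIT2 they were HERC5 (0.27), DDX60 (0.45) and IFI44 (0.66), and for IFIT3 they were DDX60 (0.19), IFI44 (0.36) and RSAD2 (0.53). HERC5 averaged 1.12 TPM in unirradiated and 1.65 TPM in irradiated KO libraries, where the pseudocount also compresses changes. Its KO effect in unirradiated cells was -5.19 and reached -5.98 over the alternatives, beside -4.49 and -4.80 for IFIT2. IFIT2 and IFIT3 differed from each other by 0.35, whereas IFIT1 differed by 1.02 from IFIT2 and by 0.72 from IFIT3, which is further than from its 3 nearest genes outside the family. IFIT5 differed by 1.09 from IFIT1, its nearest relative. Its nearest genes were B4GALT5, a galactosyltransferase (0.081), DTX3L, a ubiquitin ligase (0.082), and TAP1, a peptide transporter for antigen presentation (0.086). TAP1 had means of 40.8 TPM in unirradiated WT, 27.2 TPM in unirradiated KO, 47.7 TPM in irradiated WT and 27.0 TPM in irradiated KO libraries.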

How the data were processed

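RNA-Seq values of 12 FaDu libraries were taken from a single table of TPM (transcripts scaled to 1000000 per library) that the authors deposited. Per the labels, poly(A) RNA was read as 100-base paired ends, and the submitters' processing notes name HISAT2, StringTie, DESeq2 and hg38 without versions; annotation and strand setting are not given in the sources used here. Each column sums to the same total, so TPM keeps no depth and no counting error could be attached. The column headings differ from the sample titles; the nontargeting guide's columns were taken as STING WT and the others as STING KO.

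The 15973 of 58288 genes that reached 1 TPM in at least 3 libraries were fitted as log2(TPM + 1) with 4 group means in limma 3.58.1 (R 4.3.3; eBayes with trend; 8 residual degrees of freedom), with Benjamini-Hochberg adjustment over all tested genes and a threshold of 0.05. The authors' DESeq2 analysis uses counts, which were not used here. The fit was tested on simulated data. Single values were compared by two-sided exact permutation tests (SciPy 1.17.1). Coordinates came from GENCODE 29, to which 55661 identifiers matched with their version, and promoter windows from RefSeq. IFIT2 has no entry in the promoter table.

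The members and gene lists were chosen with earlier results of these data known. Named genes are the members, TMEM173, IFIT1B, all neighbours and cap genes, the 3 tested genes with the largest change in unirradiated cells of every other list, and the 3 genes outside the family most like each member; others are named because they carry a count. The result of 1 gene that the rule names is not reported here. The limma results of the members, of the named genes where they passed and of the counts were recomputed without the trend, with 0.1 as pseudocount, unfiltered, with the filter set on the mean (5 TPM or more), after scaling by median ratios or by quantiles, with replicate numbers as blocks, with each fit limited to its own 6 libraries, and with every library omitted in turn. The difference of the radiation effects had no fit limited to its own libraries, summed TPM and ratios were recomputed only with libraries omitted, and ranks and likeness were not recomputed. Over the 18 pairs of same-numbered libraries of different groups, deviations from the group means correlated across genes between -0.060 and 0.064, so replicate numbers did not pair the libraries.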

Additional observations from a re-analysis of the deposited data

Results flagged for a closer look

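IFIT1 was higher in every irradiated than in every unirradiated WT library and lower in every irradiated than in every unirradiated KO library. Its rise in WT cells passed the limma threshold (0.63, adjusted p = 0.0095), and its change in KO cells did not (-0.38, adjusted p = 0.075). The difference of the effects, KO minus WT, was -1.01 on the log2 scale, and the limma test of that difference did not pass after adjustment over all genes (adjusted p = 0.14, 0.055 to 0.31 over the alternatives). The summed TPM of the 4 IFIT genes behaved alike, with a difference of -0.85 in log2, and so did the log2 ratio of IFIT1 to IFIT5 within a library, with -0.65. IFIT1 is a large part of both quantities, so these are not separate observations, and their differences were not tested. With 3 libraries in a group, single libraries were not examined for outlying values.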

How the results depend on the processing

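The 8 KO comparisons of the 4 members kept their direction and their side of the threshold in all 20 alternatives each. For IFIT2 in unirradiated cells the log2 fold change lay between -4.61 and -4.43 with each library left out in turn and between -4.80 and -4.44 otherwise, and for IFIT5 between -0.60 and -0.52 and between -0.59 and -0.51. The radiation effects were less stable. In WT cells 3 members passed, 2 to 3 with a library left out and 0 when only the 6 WT libraries were fitted, where IFIT1 (0.63), IFIT2 (0.72) and IFIT5 (0.29) each lost the call; IFIT5 (0.26 to 0.32 with a library left out) also lost it with the replicate number as a block (0.29, adjusted p = 0.068). In KO cells 0 members passed, but 1 did with median-of-ratios scaling (IFIT1, -0.41), with the replicate block (IFIT1, -0.38, adjusted p = 0.043) and without unirradiated WT library 3, so 0 to 1 with a library left out and -0.41 to -0.33 for IFIT1. IFIT3 turned to 0.051, 0.0047 and 0.0079 without unirradiated KO library 3, irradiated KO library 1 and irradiated KO library 3. The range of IFIT3 was -0.18 to 0.051. The replicate block changed no other call of a member. The cause of these changes was not tested. Counts over all genes also moved, to 103 of 276 (KO, unirradiated), 252 of 573 (KO, irradiated), 166 of 597 (radiation, WT) and 195 of 590 (radiation, KO) with only the libraries compared, and to between 172 and 292, 313 and 542, 242 and 526, and 268 and 553 with a library left out. With the replicate block they were 378, 315 and 359 in the last 3 comparisons and 1 of 3 in the difference of the radiation effects. Of the other interferon-stimulated genes, 27 in place of 42 passed for KO in unirradiated cells when only those libraries were fitted, and for radiation in WT cells 7 in place of 11 with a pseudocount of 0.1 or the block and 5 without the filter. The 3 genes of the difference became 7 without the filter, 1 without the trend and 1 to 9 with a library left out. The number of libraries and the unknown depth limit what small changes can show.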

Other observations

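The pseudogenes of the family were close to 0. IFIT1P1 was at most 0.27 TPM in any library and IFIT6P at most 0.081 TPM.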
